A study of Homo sapiens with 4 samples.

Results

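The genes of respiratory complex I that are encoded in the nucleus were examined in LASCPC-01 cells treated with ketotifen. Members were taken by symbol, as every gene whose symbol begins with NDUF apart from NDUFA4L2, which is given once as the paralog of NDUFA4. This gave 46 of 16376 genes, of which 38 were structural subunits and 8, with symbols beginning NDUFAF, were assembly factors. All 46 passed the filter of a mean of at least 1 FPKM (fragments per unit of gene length and of sequencing depth) over the 4 libraries, so none was lost among the 10586 tested genes. The line models human prostate cancer of the neuroendocrine type. It was derived from prostate epithelial cells into which N-Myc and an activated AKT1 were introduced, and its genotype is labelled WT in every sample. Ketotifen, an allergy drug that blocks the histamine H1 receptor, is proposed in the series title as a drug for this cancer. Polyadenylated RNA was sequenced from 2 libraries of cells given PBS and 2 given ketotifen, all labelled day 3. The dose is not given in the sources used here.

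Complex I (NADH:ubiquinone oxidoreductase) takes electrons from NADH, passes them along a chain of iron-sulfur clusters to ubiquinone and pumps protons across the inner mitochondrial membrane. Its N module oxidises NADH, its Q module reduces ubiquinone, and its proximal and distal membrane arms hold the proton pumps. The catalytic core is shared with bacteria, whereas the accessory subunits stabilise the enzyme. Assembly factors help to build the complex and are not part of the finished enzyme. The core subunits encoded in mitochondrial DNA were not analysed here.

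Whole read numbers could be recovered from the steps of the FPKM values for all 46 members, up to a common factor per gene. They ranged from 201 to 10337 reads per member and library, with a median of 2522, and the libraries summed to between 31313357 and 34979608 reads. PBS library B stood apart for these genes. It held the lowest of the 4 values for 34 of 46 members (73.9%), against 28.8% of all tested genes, and the counts are therefore given with and without it. Among neuroendocrine markers, UCHL1 ranged from 434 to 490 FPKM, while SYP (0.379 to 0.594 FPKM) and CHGA (0 to 0.0886 FPKM) were near absent. Limma called 0 of the 6 tested neuroendocrine markers. At an unadjusted p under 0.05 it had 1 higher and 3 lower, against 10% and 10.3% of all tested genes. Voom called 3 lower, against 3.55% of all tested genes. They were NCAM1, ENO2 and MYCN, with voom adjusted p of 0.00949, 0.0434 and 0.0131. MYCN measured 370 and 387 FPKM with PBS and 327 and 332 FPKM with ketotifen. The part of these markers in the results on complex I was not tested. Markers of immune, endothelial and fibroblast cells summed to between 5.30 and 6.999 FPKM per library. Their highest sum was in PBS library B. Of these 8 genes only CD68 and COL1A1 passed the filter and neither was called (limma and voom, both also above an unadjusted p of 0.05 in limma), and none was at 0 in every library.

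With ketotifen, most structural subunits of complex I had slightly higher values. With the deposited scaling, the median change among the 4 modules was largest in the distal membrane arm, which holds the NDUFB series. It was 0.20 there against 0.18 in the Q module, and which of these was larger depended on the scaling. The 4 genes placed in no module had a median of 0.25. The median change of the 38 structural subunits was 0.13 (ketotifen minus PBS, in log2 of FPKM + 1), with 33 of 38 above 0. The median over all tested genes was -0.02, with 44.3% above 0. Under 5 other scalings the median of the structural subunits lay between 0.07 and 0.15, and it was 0.08 without PBS library B and 0.19 without PBS library A. The 8 assembly factors had a median of 0.17, with 5 above 0 and 3 below, which was 0.07 when PBS library B was left out and 0.10 when ketotifen library A was. In 26 of 46 members both ketotifen values lay above both PBS values (56.5%), against 23.2% of all tested genes. In 4 members both lay below (8.70%), against 31.2% of all tested genes. These counts were 26 and 10 members without PBS library B, against 34.6% and 41.4% of all tested genes. The median level of the structural subunits varied between libraries of a group with a pooled SD of 0.08 (log2, n = 2 and 2), and that of the assembly factors with 0.11.

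Limma on log2(FPKM + 1) called no member higher and no member lower at an adjusted p under 0.05, and the smallest adjusted p of a member was 0.0946. It called 0.00945% of all tested genes higher and 0.113% lower. Members had a median mean level of 73.3 FPKM against 10.9 FPKM over all tested genes, so such shares compare genes of unlike level. The part of level in them was not tested. At an unadjusted p under 0.05, 23 members were higher (50%) and 1 was lower (2.17%), against 10% and 10.3% of all tested genes. The 23 were 15 without PBS library B (9.05% of all tested genes), 12 when ketotifen library A was left out (5.31%), 13 with the length trend of each library removed (9.29%) and 8 with no filter (5.77%). Voom, a count-based fit in limma, run on the recovered reads called 11 members higher (23.9%) and 0 lower, where it called 3.35% of all tested genes higher and 3.55% lower. All 11 were structural subunits. They were NDUFB2, NDUFB6, NDUFB8 and NDUFB11 of the distal arm, NDUFA8 and NDUFA13 of the proximal arm, NDUFA9 and NDUFS3 of the Q module, NDUFA2 of the N module, and NDUFA4 and NDUFAB1. In each of the 11 both ketotifen values lay above both PBS values. The calls rest on these same values, so that separation is not further support for them. Without PBS library B voom called 5 of these 11, namely NDUFA13, NDUFB2, NDUFB6, NDUFB8 and NDUFS3, where it called 1.76% of all tested genes higher. Without ketotifen library A it called only NDUFB2 (adjusted p = 8.60e-05) and NDUFB8 (adjusted p = 0.0469) in the voom fit, where it called 0.633% of all tested genes higher. Where a library was left out, the lone library of its group was assumed to vary like the other group.

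**Figure D1:**
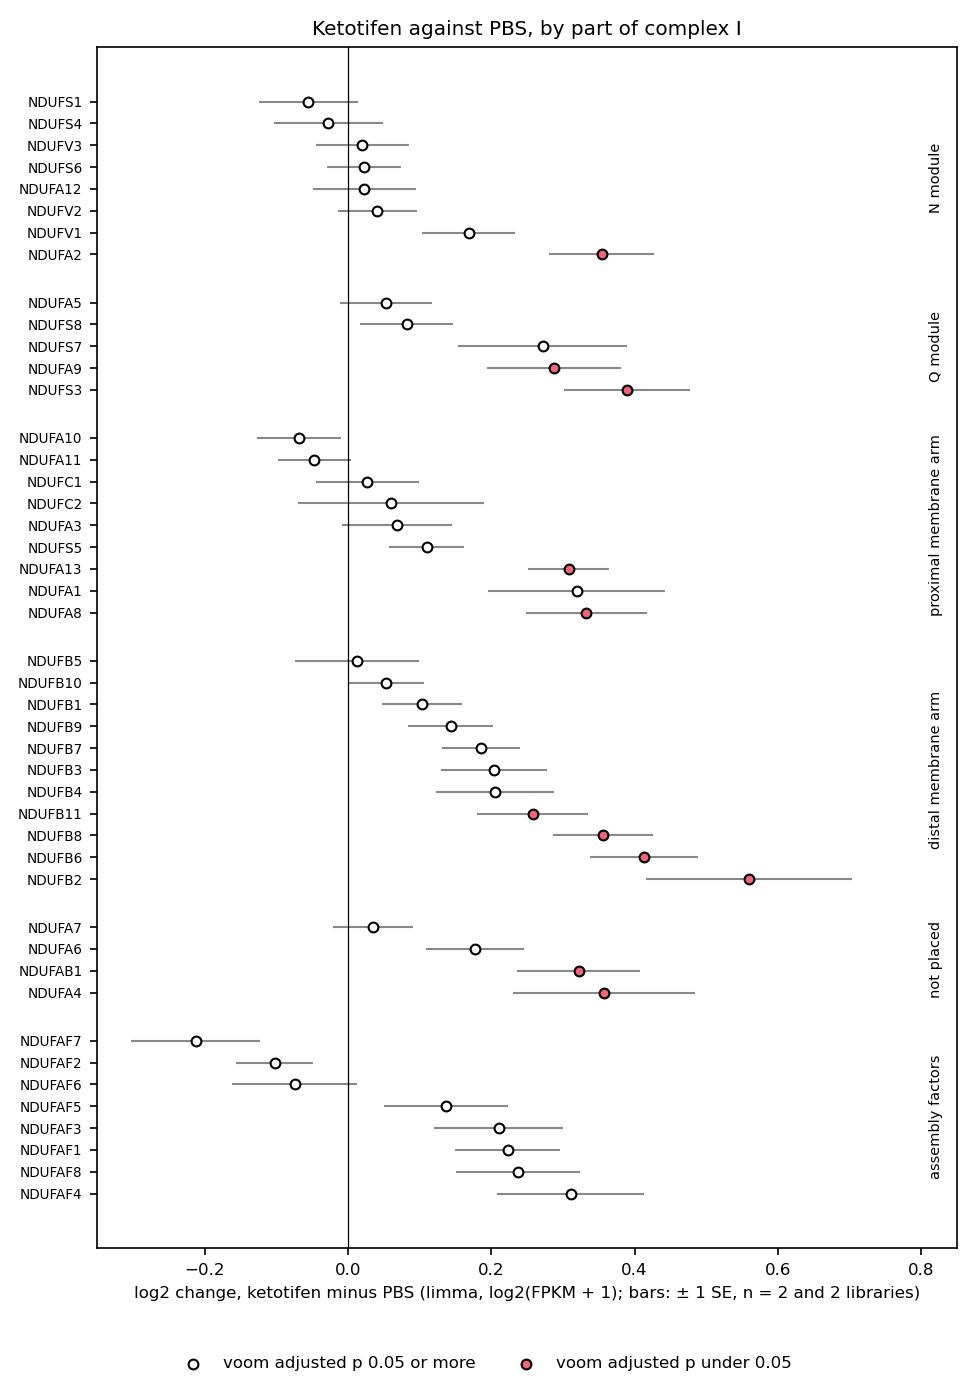
Change of 45 complex I members, ketotifen minus PBS, on the log2(FPKM + 1) scale, grouped by position in the enzyme. Points are limma estimates from 2 and 2 libraries, bars are ± 1 SE, and filled points mark the 11 members with a voom adjusted p under 0.05. All 11 distal arm subunits lie right of 0 with the deposited scaling, and 6 of the 8 N module subunits lie between -0.06 and 0.04, with NDUFV1 and NDUFA2 further right.

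Promoter sequence was set beside these values because many members had higher values together and because nuclear genes of respiration often carry binding motifs for NRF1, ETS family factors (GABP) and YY1. Windows of 250 bases before to 50 bases after the transcription start, from RefSeq (GRCh38.p14), matched 39 of 46 members. The NRF1 core GCGCATGCG, on either strand, was in 6 of 39 genes (15.4%), against 4.48% of tested genes and 2.34% of all genes in the promoter table. In NDUFA8, NDUFAF5 and NDUFB4 the motif matched on both strands at overlapping positions and was counted once per gene. The ETS core CCGGAAG was in 7 of 39 genes (17.9%), against 24.5% of tested genes and 12.2% of all genes. The YY1 core AAGATGGC was in 8 of 39 genes (20.5%), against 7.21% of tested genes and 3.52% of all genes. These matches are descriptions of sequence, not bound sites.

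The upstream stretches of a few catalytic core and N module genes show how these motifs lie. NDUFS3, which voom called higher, has ETS cores whose first bases are 102 and 83 bases before its start, within chr11:47578964-47579023 (plus strand). NDUFS7, with a log2 change of 0.27, has an NRF1 core 74 bases before its start, within chr19:1383807-1383866 (plus strand). NDUFS6, with a log2 change of 0.02, has the same core 46 bases before its start, within chr5:1801332-1801391 (plus strand). Capitals mark the motif on either strand.
NDUFS3: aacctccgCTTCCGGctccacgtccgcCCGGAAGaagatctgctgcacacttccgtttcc
NDUFS7: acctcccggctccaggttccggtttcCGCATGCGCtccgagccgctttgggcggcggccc
NDUFS6: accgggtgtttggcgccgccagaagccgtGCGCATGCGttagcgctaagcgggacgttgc

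In all 8 genes with the YY1 core it began between bases 10 and 26 of the transcript and lay on the coding strand. The TISU element, a short initiator described just after the start of many housekeeping genes, holds this core and overlaps the start codon. The windows of 4 of these genes are shown, with the core in capitals, because they pair 2 members called by voom with 2 that had small changes. NDUFB8 (chr10:100529833-100529862, minus strand) and NDUFA9 (chr12:4649116-4649145, plus strand) were called higher by voom. NDUFA7 (chr19:8321340-8321369, minus strand) and NDUFS4 (chr5:53560652-53560681, plus strand) had log2 changes of 0.04 and -0.03.
NDUFB8: agaaggtgAAGATGGCggtggccagggccg
NDUFA9: tgtgggaaAAGATGGCggctgccgcacaat
NDUFA7: gcggacggAAGATGGCgtccgccacccgtc
NDUFS4: cctgcagcAAGATGGCggcggtgtcaatgt

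**Figure D2:**
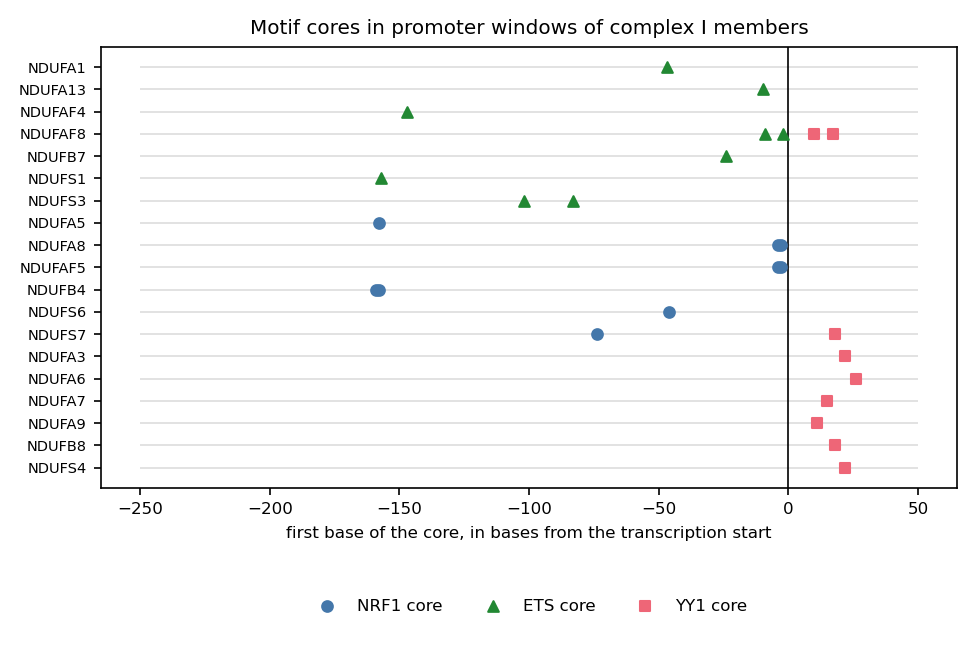
Positions of the NRF1, ETS and YY1 cores in the promoter windows of the 19 complex I members that hold at least 1 of them. The horizontal axis is the distance of the motif's first base from the transcription start, in bases, and grey lines span the window. NRF1 and ETS cores are scattered before the start, whereas the YY1 cores sit together between bases 10 and 26 after it.

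The distal membrane arm, built here of NDUFB1 to NDUFB11, had a median log2 change of 0.20, and of 0.14 without PBS library B. In 10 of its 11 subunits (90.9%) both ketotifen values lay above both PBS values, against 23.2% of all tested genes. Without PBS library B the count was again 10, against 34.6% of all tested genes. NDUFB2, an accessory subunit of this arm, measured 120 and 82.4 FPKM in PBS libraries A and B and 147 and 148 FPKM in ketotifen libraries A and B. The ketotifen libraries were nearly equal, and PBS library B was far below PBS library A. NDUFB2 had the largest change of any member, with a ratio of means of 1.45 and a log2 change of 0.56 ± 0.14 (SE, n = 2 and 2), at a limma adjusted p of 0.120 and a voom adjusted p of 0.00511. Without PBS library B the log2 change was 0.29, with a voom adjusted p of 0.0199. NDUFB8, whose protein is widely used as an antibody marker of assembled complex I, measured 130 and 114 FPKM with PBS and 159 and 153 FPKM with ketotifen. Its groups were well apart, with a log2 change of 0.36 ± 0.07 (SE, n = 2 and 2), a limma adjusted p of 0.0968 and a voom adjusted p of 0.00320. NDUFB2 and NDUFB8 were the only members called in all 8 voom settings tried.

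NDUFB6 had lower levels, 16.7 and 15.5 FPKM with PBS against 23.2 and 20.4 FPKM with ketotifen. Its log2 change was 0.41 ± 0.08 (SE, n = 2 and 2), with a limma adjusted p of 0.0946 and a voom adjusted p of 0.0133. For this gene PBS library B was close to PBS library A, and the change without PBS library B was 0.36. NDUFB11, encoded on the X chromosome, measured 156 and 132 FPKM with PBS and 170 and 173 FPKM with ketotifen, at a log2 change of 0.26 ± 0.08 (SE, n = 2 and 2) and a voom adjusted p of 0.0320. Without PBS library B its change was 0.14, with a voom adjusted p of 0.301. The other 7 distal subunits had log2 changes between 0.01 (NDUFB5) and 0.20 (NDUFB3 and NDUFB4), and none was called. NDUFB1, NDUFB5 and NDUFB10 changed sign under at least 1 scaling.

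**Figure D3:**
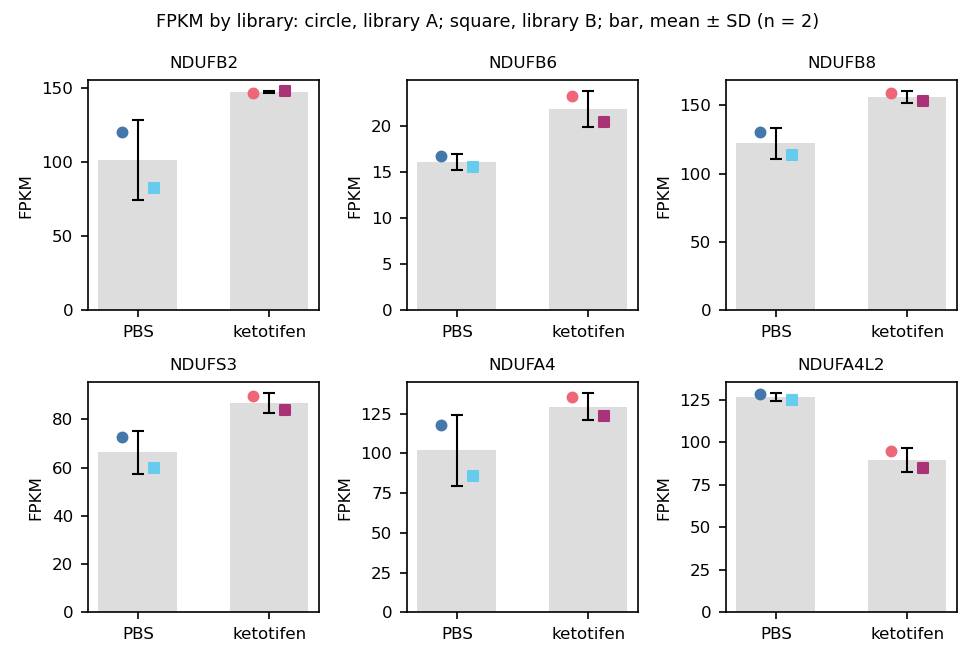
FPKM of 5 complex I members and of NDUFA4L2 in each library. Circles are libraries A and squares libraries B, bars are group means, and error bars are ± SD with n = 2. For the 5 members both ketotifen values stand above both PBS values, whereas NDUFA4L2 goes the other way.

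The 7 core subunits encoded in the nucleus did not share a direction. Their log2 changes ranged from -0.06 to 0.39 with a median of 0.08, which was 0.06 without PBS library B. In 3 of 7 (42.9%) both ketotifen values lay above both PBS values, against 23.2% of all tested genes. Without PBS library B the count was again 3, against 34.6% of all tested genes. NDUFS3, a core subunit of the Q module, measured 72.7 and 59.9 FPKM with PBS and 89.6 and 83.9 FPKM with ketotifen. It had the largest change of the core, 0.39 ± 0.09 (SE, n = 2 and 2) on the log2 scale, with a limma adjusted p of 0.102 and a voom adjusted p of 0.00693. Without PBS library B the change of NDUFS3 was 0.25, with a voom adjusted p of 0.0389.

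NDUFS7, which carries the last iron-sulfur cluster before ubiquinone, measured 76.7 and 56.8 FPKM with PBS and 80.0 and 79.9 FPKM with ketotifen. Only PBS library B stood off from the other values, and the log2 change was 0.27 with it and 0.06 without it. NDUFV1, the subunit that binds NADH and flavin, measured 110 and 101 FPKM with PBS and 124 and 114 FPKM with ketotifen. Its groups did not overlap, but neither fit called it (limma adjusted p = 0.207, voom adjusted p = 0.0867).

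Other core subunits overlapped between the groups. NDUFS8, a Q module iron-sulfur subunit, measured 216 and 210 FPKM with PBS and 213 and 239 FPKM with ketotifen. NDUFV2, the partner of NDUFV1, measured 117 and 113 FPKM with PBS and 122 and 115 FPKM with ketotifen. NDUFS1, the largest iron-sulfur subunit of the N module, measured 14.8 and 13.4 FPKM with PBS and 13.8 and 13.2 FPKM with ketotifen, for a log2 change of -0.06.

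Beyond the core, 1 accessory subunit each of the N and Q modules was called by voom. NDUFA2, a small thioredoxin-fold subunit of the N module, measured 69.2 and 59.4 FPKM with PBS and 82.2 and 82.4 FPKM with ketotifen. Its log2 change was 0.35 ± 0.07 (SE, n = 2 and 2), with a limma adjusted p of 0.1003 and a voom adjusted p of 0.0116, which was 0.0845 without PBS library B. NDUFA9, the Q module subunit that joins the peripheral arm to the membrane arm, measured 11.5 and 9.28 FPKM with PBS and 13.2 and 12.5 FPKM with ketotifen. Its voom adjusted p was 0.0203, and 0.202 without PBS library B. NDUFV1 aside, the other N module genes had log2 changes between -0.06 and 0.04, and the module's median log2 change was 0.02 over 8 genes against 0.18 over the 6 genes of the Q module. The medians were 0.01 and 0.07 without PBS library B. NDUFS4, an N module subunit mutated in Leigh syndrome, was among the 5 structural subunits with the smallest changes, at 27.2 and 24.8 FPKM with PBS and 23.9 and 27.2 FPKM with ketotifen.

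The proximal membrane arm was mixed, with a median log2 change of 0.07 over 9 genes. Without PBS library B that median was -0.03, with 4 of 9 above 0, against 4912 of 10586 tested genes. NDUFA13, also known as GRIM-19, measured 273 and 256 FPKM with PBS and 333 and 322 FPKM with ketotifen, at a log2 change of 0.31 ± 0.06 (SE, n = 2 and 2), a limma adjusted p of 0.0946 and a voom adjusted p of 0.00392. The spread within each group was small, and the change without PBS library B was 0.26. NDUFA8, a subunit on the intermembrane space side, measured 72.7 and 60.0 FPKM with PBS and 83.6 and 83.2 FPKM with ketotifen, with a voom adjusted p of 0.0109 that was 0.0803 without PBS library B.

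In the same arm NDUFA10 and NDUFA11 had both ketotifen values below both PBS values. NDUFA10 measured 16.6 and 17.2 FPKM with PBS and 16.3 and 15.8 FPKM with ketotifen, and its log2 change of -0.07 ± 0.06 (SE, n = 2 and 2) was the lowest of any structural subunit. NDUFA11 measured 53.6 and 52.6 FPKM with PBS and 51.9 and 50.8 FPKM with ketotifen. Neither passed the limma test (adjusted p = 0.531 and 0.628) or the voom test. NDUFS5 had the highest mean of all members, 545 FPKM over the 4 libraries, and NDUFC2 the lowest, 4.01 FPKM.

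NDUFAB1, NDUFA4, NDUFA6 and NDUFA7 were placed in no module. NDUFAB1, the mitochondrial acyl carrier protein, which also serves fatty acid and lipoate synthesis, measured 98.9 and 81.6 FPKM with PBS and 115 and 110 FPKM with ketotifen. Its voom adjusted p was 0.0160, and 0.153 without PBS library B. NDUFA4 was first isolated with complex I and was later described as a subunit of complex IV, cytochrome c oxidase. It measured 118 and 85.9 FPKM with PBS and 135 and 123.4 FPKM with ketotifen, at a log2 change of 0.36 ± 0.13 (SE, n = 2 and 2), a limma adjusted p of 0.189 and a voom adjusted p of 0.0209. Without PBS library B the change of NDUFA4 was 0.13 and its voom adjusted p 0.139.

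NDUFA4L2, the paralog of NDUFA4 that is induced in low oxygen, measured 128 and 125 FPKM with PBS and 94.6 and 84.8 FPKM with ketotifen. It fell by 0.49 on the log2 scale, at a limma adjusted p of 0.0437. The ratio of NDUFA4 to NDUFA4L2 was 0.919 and 0.688 in PBS libraries A and B and 1.43 and 1.46 in ketotifen libraries A and B. By deposited FPKM, NDUFA4L2 was the higher of the pair in both PBS libraries and NDUFA4 in both ketotifen libraries. Which of the pair had more transcripts in a library is uncertain, because the gene lengths behind the FPKM are not given. The rise of the ratio from PBS to ketotifen does not depend on those lengths.

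The 8 assembly factors were much less abundant than the structural subunits, with a median mean level of 11.2 FPKM against 80.0 FPKM. Neither limma nor voom called any of them at the main settings. Some were called in other settings, such as NDUFAF8 by limma with a replicate block (adjusted p = 0.0266). With only 8 genes, these calls do not set them apart from the structural subunits. At the main settings and an unadjusted p under 0.05, limma had 4 higher (50%) and 1 lower (12.5%), against 10% and 10.3% of all tested genes. NDUFAF4 had the largest change. This factor of the early assembly steps measured 13.6 and 10.8 FPKM with PBS and 14.6 and 16.04 FPKM with ketotifen, with a log2 change of 0.31 ± 0.10 (SE, n = 2 and 2), a limma adjusted p of 0.169 and a voom adjusted p of 0.0508. Its change was 0.16 without PBS library B, with a voom adjusted p of 0.444. NDUFAF3, which binds NDUFAF4, measured 38.9 and 32.2 FPKM with PBS and 42.9 and 39.3 FPKM with ketotifen. In both genes PBS library B was the lowest, and the change of NDUFAF3 was 0.21 with it and 0.08 without it.

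NDUFAF1, a member of the assembly complex of the membrane arm, measured 8.08 and 7.72 FPKM with PBS and 8.89 and 9.90 FPKM with ketotifen, on only 201 to 253 recovered reads per library. NDUFAF8, a small partner of NDUFAF5, measured 73.2 and 62.0 FPKM with PBS and 84.1 and 75.3 FPKM with ketotifen. NDUFAF5, which hydroxylates an arginine of NDUFS7, measured 7.80 and 6.85 FPKM with PBS and 8.69 and 7.62 FPKM with ketotifen. The groups overlapped for NDUFAF5 and not for NDUFAF1 or NDUFAF8. The changes of NDUFAF8 and NDUFAF5 were 0.24 and 0.14 with PBS library B and 0.12 and 0.05 without it.

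The other 3 factors had negative changes. NDUFAF7, a protein arginine methyltransferase, measured 5.04 and 5.44 FPKM with PBS and 4.80 and 3.996 FPKM with ketotifen, a log2 change of -0.21 ± 0.09 (SE, n = 2 and 2) with a limma adjusted p of 0.238 and a voom adjusted p of 0.170. NDUFAF2, a paralog of NDUFA12 that holds its place during assembly, measured 44.3 and 43.9 FPKM with PBS and 41.9 and 40.1 FPKM with ketotifen. NDUFAF6 measured 5.20 and 5.83 FPKM with PBS and 4.84 and 5.55 FPKM with ketotifen. Both ketotifen values lay below both PBS values for NDUFAF7 and NDUFAF2, and the groups overlapped for NDUFAF6.

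Among 16 other complex I assembly genes without an NDUF symbol, 15 were tested and their median log2 change was 0.12. Limma called 0 of them, with 5 higher and 0 lower at an unadjusted p under 0.05, against 10% and 10.3% of all tested genes. Voom called 3 higher and 0 lower, against 3.35% and 3.55% of all tested genes. TMEM186, of the membrane arm assembly complex, measured 10.02 and 8.997 FPKM with PBS and 13.3 and 12.1 FPKM with ketotifen (voom adjusted p = 0.0399). TIMMDC1, of the same complex, measured 29.5 and 28.3 FPKM with PBS and 34.4 and 34.9 FPKM with ketotifen (voom adjusted p = 0.0189). FOXRED1, a flavoprotein needed for assembly, measured 24.9 and 22.5 FPKM with PBS and 29.98 and 27.4 FPKM with ketotifen (voom adjusted p = 0.0182). In each of these 3 genes the groups did not overlap, and PBS library B held the lowest value. The 3 were named because voom called them on the same values, so that separation is not further support. Their changes without PBS library B are not given here.

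Of 13 regulators of mitochondrial genes, 12 were tested. Limma called 0, with 1 higher and 0 lower at an unadjusted p under 0.05, against 10% and 10.3% of all tested genes. Voom called 1 higher and 0 lower, against 3.35% and 3.55% of all tested genes. The median log2 change of these regulators was 0.03. ESRRA, the nuclear receptor ERR alpha, measured 27.9 and 23.9 FPKM with PBS and 30.6 and 31.3 FPKM with ketotifen. It had a voom adjusted p of 0.0283 and a limma adjusted p of 0.151. PBS library B held its lowest value, with a log2 difference from PBS library A of -0.22. The change of ESRRA without PBS library B is not given here. The factors whose motifs were searched above were not called. NRF1 had a log2 change of 0.13, GABPA of -0.06 and YY1 of -0.04.

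The PBS libraries differed between themselves about as much as the ketotifen and PBS groups did. The median difference of the structural subunits, PBS B minus PBS A, was -0.13 on the log2(FPKM + 1) scale with 34 of 38 below 0, and that of the assembly factors was -0.11 with 6 of 8 below 0. The median over all tested genes was 0.01, with 47.2% below 0. There was 1 library on each side, so no test was made. Lower in PBS B by more than 0.25 were 12 of 46 members (26.1%), against 4% of all tested genes, and higher by more than 0.25 were 0 of 46, against 3.21% of all tested genes. NDUFB2 was 31.5% lower in PBS B than in PBS A, NDUFC2 30.8% lower, NDUFA4 27.0% lower and NDUFS7 25.96% lower. NDUFS5, the most abundant member, measured 525 and 524 FPKM in PBS A and PBS B.

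**Figure D4:**
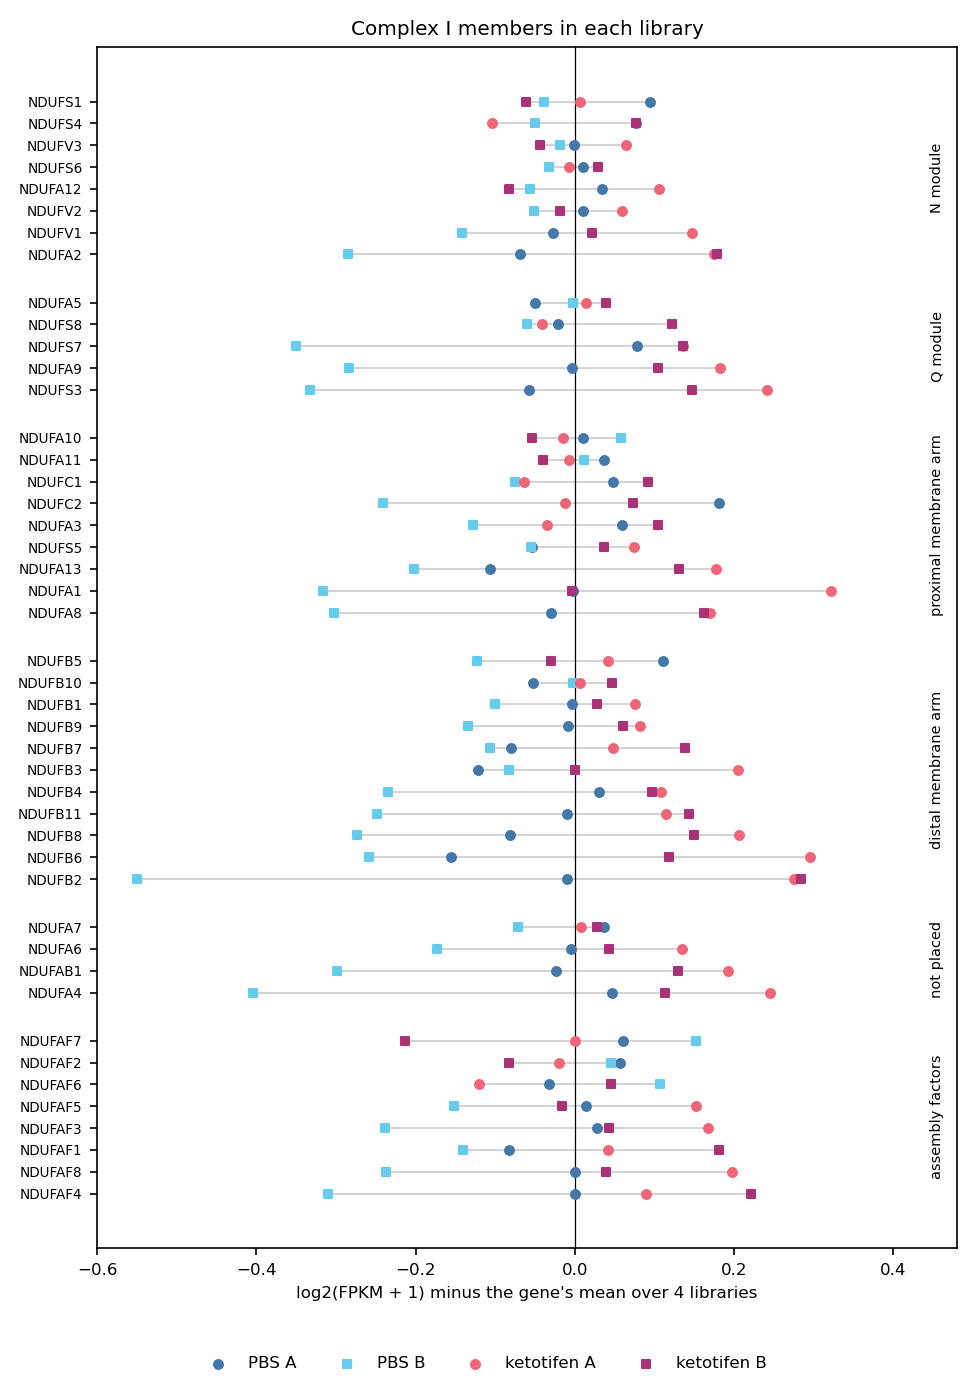
Level of 45 complex I members in each library, as log2(FPKM + 1) minus the gene's mean over the 4 libraries. Circles are libraries A and squares libraries B, with PBS in blue and ketotifen in red and purple. PBS library B is the leftmost point for 33 of these 45 members, and both ketotifen libraries lie right of PBS library A in 26 of them.

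The comparisons of ketotifen with PBS and of the PBS libraries with each other share the PBS libraries, so their values are only set side by side. Against PBS library A alone, the mean of the ketotifen libraries had a median difference of 0.08 over the structural subunits. There 27 of 38 were above 0, against 4912 of 10586 tested genes. Against PBS library B alone the median difference was 0.19, with 36 of 38 above 0, against 4637 of 10586 tested genes. The ketotifen libraries were closer to each other, with a median of -0.04 for B minus A over the structural subunits. In ketotifen B 1 of 46 members, NDUFA1, was lower by more than 0.25, a share similar to the 221 of 10586 tested genes. NDUFA1, a proximal arm subunit encoded on the X chromosome, measured 121 and 97.0 FPKM with PBS and 152 and 121 FPKM with ketotifen, so PBS library A and ketotifen library B were nearly equal here.

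When the trend of each library on gene length was removed, the median difference of the structural subunits, PBS B minus PBS A, was -0.08 and their median change with ketotifen was 0.08. Both were smaller than without that step. Whether RNA quality or handling differed between the libraries was not tested. In bulk RNA, fewer cells of a kind and less RNA per cell cannot be told apart.

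**Figure D5:**
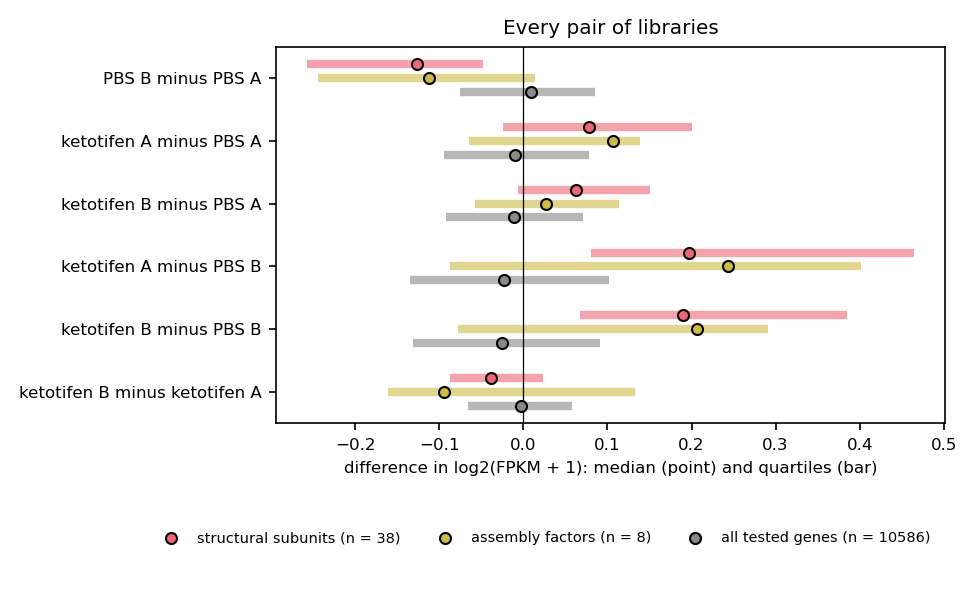
Differences in log2(FPKM + 1) for every pair of libraries. Points are medians and bars span the quartiles of 38 structural subunits, 8 assembly factors and 10586 tested genes. The medians of the structural subunits are 0.06 and 0.08 for ketotifen libraries B and A against PBS A, and 0.19 and 0.20 against PBS B, while the medians over all tested genes stay within 0.03 of 0.

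Over the deposited scaling, 5 other scalings and voom, 27 members kept a positive change, 7 kept a negative change and 12 changed sign. Those with mixed signs were NDUFA7, NDUFA12, NDUFB1, NDUFB5, NDUFB10, NDUFC1, NDUFS1, NDUFS5, NDUFS6, NDUFS8, NDUFV2 and NDUFV3. All 11 members called by voom were among the 27.

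Several members share exon sequence with a neighbour in the GENCODE v29 annotation of GRCh38, and how shared reads were counted is not given in the sources used here. NDUFC2 (chromosome 11, 78068304 to 78080219) overlaps the readthrough gene NDUFC2-KCTD14 on the same strand over 431 exon bases, and its level is therefore uncertain. NDUFS3 (chromosome 11, 47565336 to 47584562) overlaps PTPMT1 on the same strand over 721 bases. Among other members called by voom, the largest overlap with a single same-strand gene is 1103 exon bases for NDUFA9. It is 675 for NDUFB8 (chromosome 10, 100523740 to 100530000) and 437 for NDUFA13. On the opposite strand, the largest overlap of NDUFB2 (chromosome 7, 140690777 to 140722790) with a single gene is 1239 exon bases. There NDUFB11 (chromosome X, 47142216 to 47145504) overlaps RBM10 over 636 and NDUFB8 overlaps HIF1AN over 325. NDUFB6 (chromosome 9, 32552999 to 32573184) shares 14 bases with SMIM27, and NDUFA4 (chromosome 7, 10931951 to 10940256) shares none. The annotation also lists processed copies named after members, 12 each for NDUFA5 and NDUFB4 and 6 for NDUFS5, so reads of these genes may be split.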

How the data were processed

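RNA was measured in 4 LASCPC-01 libraries. Per the labels' protocols, a stranded mRNA kit and paired-end Illumina sequencing were used. Per the submitters' processing notes, fastp, HISAT2, HTSeq and the build GRCh38 were used. For the annotation, gene lengths and strand setting of counting, nothing is given in the sources used here. The authors deposited 1 FPKM value per gene and library. The library letters A and B come from the column names and were not matched to the labels' replicate numbers. Nothing says that the libraries came from separate cultures, so p-values reflect no more than differences among these 4 libraries, possibly technical ones.

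Log2(FPKM + 1) was computed from the deposited values and tested two-sided in limma (version 3.58.1, under R 4.3.3) with an intensity trend. Genes had to average 1 FPKM or more. P-values were adjusted by Benjamini-Hochberg over 10586 genes and called under 0.05. Fold changes on this scale understate those of low genes. An exact permutation test of 2 against 2 libraries cannot go below p = 0.333 and was not used. Whole reads were recovered from the FPKM steps (Python 3.11.15) for 100.000% of tested genes and for 0 of 500 decoys, at depths of 1.06, 1.12 and 1.03 relative to PBS library A for PBS B, ketotifen A and ketotifen B. Voom was run on them. The scripts were tested on simulated data.

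The members, gene lists and module grouping were chosen with earlier results of these data known. Given library by library are the 7 nuclear core subunits, all assembly factors, the 5 structural subunits with the largest and the 5 with the smallest log2 change, and every member called if 12 or fewer; of other lists, the genes called by voom are named. NDUFA1, NDUFS5 and NDUFC2 were added after their values were seen. Alternatives were other pseudocounts, filters and scalings, removal of a length trend, voom, a replicate block and leaving out each library; the voom settings were added after seeing the data. Protein sequences were not used here. Single values of 1 member and 1 marker are not reported here; both remain in the counts and medians.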

Additional observations from a re-analysis of the deposited data

How the results depend on the processing

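Limma called 0 members higher at the main settings and under other pseudocounts (0.1 and 5), no filter, a filter of 5 FPKM, 5 other scalings and leaving out NDUFA4. It called 11 with voom on recovered reads and between 0 and 22 when 1 library was left out, with 22 without PBS library A (10% of all tested genes called higher), 8 without PBS library B (2.40%), and 0 when ketotifen library A (0.0472%) or B (0.0283%) was dropped. No member was called lower under any of these. Voom itself called 11 (3.35% of all tested genes), 7 with quantile normalization (1.18%), 13 with cyclic loess (3.74%), 14 with a filter of 5 FPKM (5.33%), and between 2 (without ketotifen library A, 0.633%) and 21 (without PBS library A, 8.71%) when 1 library was left out. Members with both ketotifen values below both PBS values numbered 4 (8.70%), against 31.2% of all tested genes. When 1 library was left out, where fewer values need to be apart, they numbered between 5 and 10. The share of all tested genes was then 46.8% without PBS library A (5 members) and 41.4% without PBS library B (10 members). Both medians stayed above 0 in every setting, for structural subunits between 0.07 (equal sums) and 0.19 (without PBS library A), for assembly factors between 0.07 (without PBS library B) and 0.24 (without PBS library A). The cause of these differences was not tested. All rows taken by symbol had plain gene symbols, so counting hyphenated rows gave the same medians.

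With the column letter as a replicate block, limma called 13 members higher and 0 lower, and 3.84% of all tested genes higher. The deviations of libraries with the same letter correlated at 0.102 across genes, with only 2 pairs, and the letter is not known to mark a shared culture, so libraries are treated as sharing only a letter.

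Recovered reads were lowest for NDUFAF1 (201 to 253 per library) and NDUFC2 (242 to 331), against a median of 2522 over members and libraries. Reads are known only up to a common factor per gene, so they do not settle which member had the lowest counting precision.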
